A study of Mus musculus with 15 samples.

Results

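The genes described here encode the C-type lectin receptors of myeloid cells, surface proteins with which monocytes, macrophages, neutrophils and dendritic cells bind sugars and lipids of microbes and of damaged cells. The 9 members were Clec4a1, Clec4a2, Clec4a3, Clec4d, Clec4e, Clec4n, Clec5a, Clec7a and Clec12a. They were chosen by gene symbol as a family, except that Clec4a3 was selected on its fall in these data at 5 mg/kg against vehicle, so its values are given as a description with no test. Of the 9, 7 had a probe set annotated with that gene alone, of 18194 genes on the array that did. These 7 genes had 10 probe sets (2 each for Clec4a2, Clec4e and Clec4n), whose Entrez Gene identifiers were 26888 (Clec4a2), 73149 (Clec4a3), 17474 (Clec4d), 56619 (Clec4e), 56620 (Clec4n), 23845 (Clec5a) and 56644 (Clec7a). Clec4a1 and Clec12a had no probe set of their own and were not analysed here.

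Whole blood was taken from 15 mice 6 h after a dose of vehicle, of 1 mg/kg ABBV-075 or of 5 mg/kg ABBV-075, with 5 mice in each group and 1 Affymetrix expression array per mouse. ABBV-075 (mivebresib) inhibits the BET bromodomain proteins, readers of acetylated histones that promote transcription. The series was set up to find blood markers that respond to the compound. The labels used here gave no strain, age or sex of the mice, and nothing in them set the vehicle mice apart from the others other than the dose. Marker genes of monocytes, B cells, platelets and erythroid cells with a probe set of their own were each above the intensity floor of 16 on at least 1 array, whereas among T cell markers Cd4 was not above it on any.

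C-type lectin receptors either activate or restrain the cell. Clec7a (Dectin-1), the receptor for fungal beta-glucan, carries its own signalling motif and recruits the kinase Syk, which works through the adaptor Card9. Clec4e (Mincle), Clec4d (MCL) and Clec4n (Dectin-2) bind glycolipids of mycobacteria or mannans of fungi and signal through the Fc receptor gamma chain, Fcer1g, to the same kinase, while Clec5a pairs with the adaptor Tyrobp. Clec4a2 (DCIR) carries an inhibitory motif that recruits phosphatases, and Clec4a1 and Clec4a3 are its close relatives. Clec12a is an inhibitory receptor for crystals of uric acid.

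All 9 genes lie on mouse chromosome 6. In the RefSeq annotation of GRCm38.p6, 6 members belong to a run of 9 neighbouring protein-coding genes, in the order Clec4a1, Clec4a3, Clec4a4, Clec4b1, Clec4a2, Clec4b2, Clec4n, Clec4d and Clec4e. Clec7a stands between Clec1a and Olr1, other lectin genes, Clec12a beside Clec12b, and Clec5a away from them. The 250 bases before the start of the 3 genes with the most negative difference at 5 mg/kg are given here 5′ to 3′ on the gene's strand, from RefSeq (GRCm38.p6), because these are the members with the largest differences. Capitals mark matches, on either strand, to GAGGAA, the core bound by the myeloid factor PU.1, and to TTGCNNAA, a C/EBP pattern. The AP-1 pattern TGANTCA had no match in these 3 windows, and no 2 matches overlapped.
Clec4a3, chr6:122952265-122952514, + strand: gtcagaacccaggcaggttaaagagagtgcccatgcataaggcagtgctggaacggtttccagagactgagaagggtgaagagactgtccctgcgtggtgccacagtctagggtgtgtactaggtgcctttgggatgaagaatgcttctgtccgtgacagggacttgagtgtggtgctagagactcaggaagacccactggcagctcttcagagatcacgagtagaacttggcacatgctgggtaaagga
Clec7a, chr6:129472786-129473035, - strand: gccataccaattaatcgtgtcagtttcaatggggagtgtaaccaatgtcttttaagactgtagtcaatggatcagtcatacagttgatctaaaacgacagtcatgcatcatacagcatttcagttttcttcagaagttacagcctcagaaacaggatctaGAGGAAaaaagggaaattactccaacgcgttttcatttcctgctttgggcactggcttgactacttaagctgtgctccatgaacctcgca
Clec4e, chr6:123289872-123290121, - strand: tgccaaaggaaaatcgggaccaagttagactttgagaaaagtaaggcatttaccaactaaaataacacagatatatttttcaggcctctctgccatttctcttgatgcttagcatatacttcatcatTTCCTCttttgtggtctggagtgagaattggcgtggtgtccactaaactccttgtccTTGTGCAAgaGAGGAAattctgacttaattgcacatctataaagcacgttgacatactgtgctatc

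The PU.1 core was present in the promoters of 6 of the 8 members in the RefSeq table (all but Clec4a2 and Clec4a3), against 23.1% of 27025 promoters of that length. In Clec7a it lay 90 bases before the start, and in Clec4e it lay 123 and 56 bases before, the latter close to the C/EBP match that began 66 bases before. The C/EBP pattern was found in 2 of 8 members (9.55% of all promoters) and the AP-1 pattern in 1 of 8 (6.87%). A match describes these letters only, and Clec4n had no entry. The start used for Clec12a, which held the AP-1 match and a C/EBP match, lay 461 bases from the annotated start of the gene. Of the 6 members with the PU.1 core, Clec4a1, Clec5a and Clec12a had no tested probe set.

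Array intensities had been deposited without scaling to a common level, with array medians from 3.61 to 25.4, and were quantile-normalised here. The array of 1 mg/kg replicate 1 had the lowest median and stood apart, with a median correlation of 0.799 with the other arrays, against 0.829 to 0.893 for the rest. Values under 16 were set to that floor, and 8 of the 10 member probe sets, from 6 of the 7 genes, were above the floor on 5 or more arrays and so entered the test of 19736 probe sets. A member that passed this filter mainly through the group in which it was high had to differ, so that counts over the 8 are a description. The log2 18S ribosomal RNA signal was lower in the treated blood (11.19 ± 0.94 in vehicle blood, SD, n = 5, then 9.97 ± 0.43 at the lower and 9.42 ± 0.42 at the higher dose), and its part in what follows was not tested beyond the fits given below. In whole blood, fewer cells of a type and less RNA per cell cannot be told apart.

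The comparison of 5 mg/kg with vehicle asks which receptor transcripts respond to the compound. Since Clec4a3 was picked for its fall in this comparison, its values chose it and the counts are given for the other 7 tested probe sets. Of these, 6 had a negative log2 difference, against 51% of all tested probe sets, and the median of the 7 was -0.80 against -0.0074 over all. Among the 6, the dimmer Clec4a2 set passed the filter mainly through its vehicle arrays, so its negative sign carries no weight at either dose. Clec7a alone of the 7 fell past the threshold, an adjusted p of 0.05 in limma over all tested probe sets, which 0.162% of all probe sets passed in either direction and 0.111% downwards. For 3 of the 7 (Clec7a, Clec4d and the brighter Clec4e probe set) all 5 treated arrays lay below all 5 vehicle arrays, as for 1.24% of all. At 1 mg/kg 6 of the 7 were again negative (53.2% of all; median -0.60 against -0.025 over all), 0 passed (0.00507% of all) and 1, Clec4d, lay wholly below vehicle (0.709% of all). The doses share the vehicle arrays, so their likeness carries no weight of its own. With Clec4a3 included the median of the 8 was -0.83 at 5 mg/kg and -0.68 at 1 mg/kg.

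**Figure D1:**
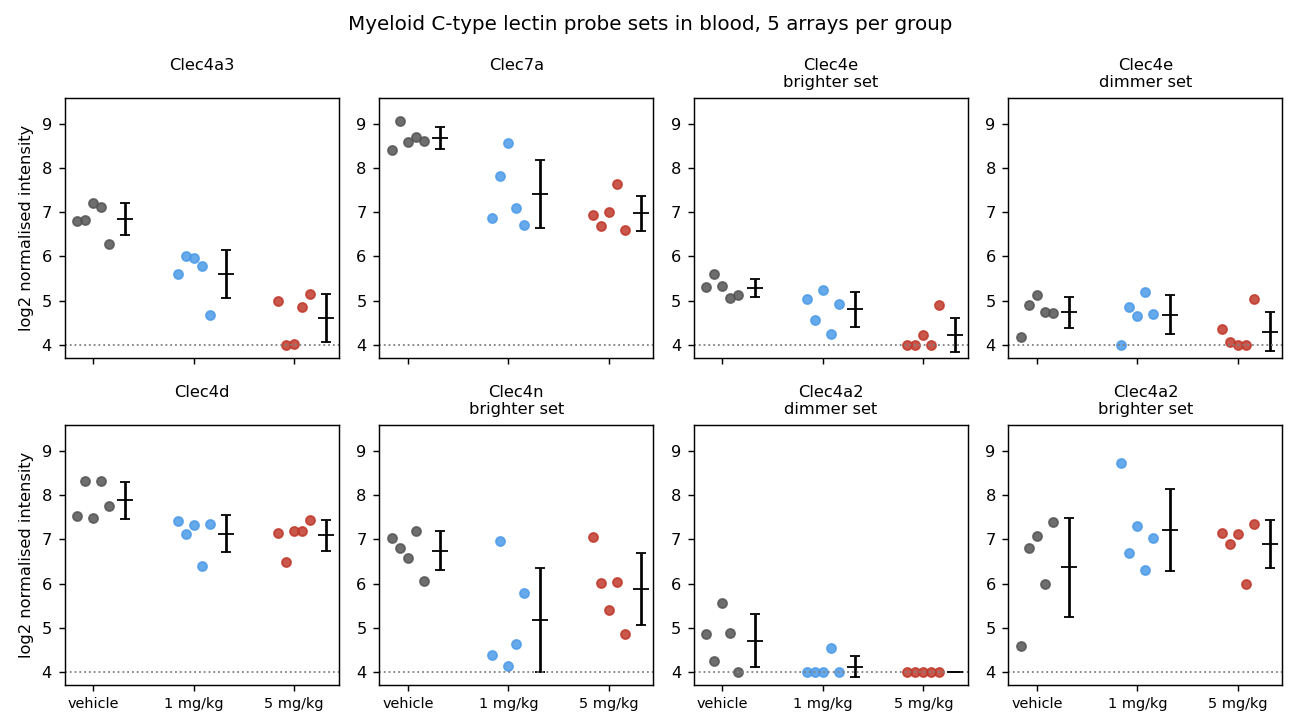
Log2 normalised intensity (vertical axis) of the 8 tested member probe sets in vehicle, 1 mg/kg and 5 mg/kg blood, with 1 point per array, the mean and SD of 5 arrays as a bar, and the floor of 4 (log2 of 16) dotted. Clec4a3, Clec7a, Clec4d and the brighter Clec4e probe set show 5 mg/kg points wholly below the vehicle points, and the brighter Clec4a2 probe set does not.

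Clec7a, the activating beta-glucan receptor, was the clearest tested member. With vehicle its normalised intensity on the 5 arrays was 339.5, 543.0, 388.5, 418.0 and 391.5. At 1 mg/kg it was 116.7, 225.7, 380.2, 137.9 and 104.8, and at 5 mg/kg it was 122.6, 103.8, 129.3, 199.1 and 96.9. All 5 arrays at 5 mg/kg were low, whereas at 1 mg/kg replicate 3 was within the vehicle range and the other 4 were below it. The log2 mean of vehicle blood was 8.68 ± 0.25 (SD, n = 5), and the lower and higher doses gave 7.41 ± 0.77 and 6.98 ± 0.41. Clec7a fell 3.26-fold at 5 mg/kg (log2 -1.71 ± 0.32, SE, 95% interval -2.38 to -1.03; limma adjusted p = 0.0446) and ranked 26th from the lowest difference of 19736. The 1 mg/kg difference was -1.27 ± 0.32 (SE; limma adjusted p = 0.422), which did not pass, and between the doses it was -0.44 (95% interval -1.11 to 0.23).

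The call of Clec7a was close to the threshold. It was lost in 10 of 15 runs that left out 1 array, namely each vehicle array, 1 mg/kg replicate 2 and 5 mg/kg replicates 1, 2, 3 and 5 (limma adjusted p = 0.0561 to 0.128, log2 -1.78 to -1.61), and over all 30 alternatives it was kept in 12. With the 18S signal as a covariate the log2 difference was -1.82 ± 0.52 (SE, limma adjusted p = 0.428). It was -1.57 ± 0.54 without scaling between arrays (limma adjusted p = 0.9997). In the fit with only the 2 groups compared it was -1.71 ± 0.22 (limma adjusted p = 0.0121). Over all probe sets the 18S fit called 0 and the fit without scaling 0 higher and 2 lower. The fit of 2 groups called 17 higher and 33 lower.

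Clec4a3, a receptor of the DCIR group, had its highest values with vehicle, its middle values at 1 mg/kg and its lowest at 5 mg/kg. The normalised intensities with vehicle were 112.3, 113.4, 148.4, 138.9 and 78.5. They were 48.9, 64.9, 62.2, 54.9 and 25.3 at 1 mg/kg, and 31.8, 15.3, 16.2, 28.9 and 35.6 at 5 mg/kg. Every treated array of either dose was below every vehicle array, while the doses overlapped, with 1 mg/kg replicate 5 inside the 5 mg/kg range. The log2 means were 6.85 ± 0.36 (SD, n = 5), 5.61 ± 0.55 and 4.60 ± 0.55, that is 4.75-fold lower than vehicle at 5 mg/kg and 2.37-fold lower at 1 mg/kg, and 2.00-fold lower at 5 mg/kg than at 1 mg/kg. Its difference at 5 mg/kg was the 7th lowest of 19736. At 5 mg/kg replicate 2 was at the floor and replicate 3 just above it at 16.2, so the fold depends on the floor.

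Clec4e, the Mincle receptor, was read by a pair of probe sets. In the brighter probe set the intensities were 39.7, 48.3, 40.2, 33.4 and 34.9 with vehicle, 32.6, 23.7, 38.0, 18.8 and 30.5 at 1 mg/kg, and 9.94, 12.4, 18.5, 13.7 and 29.7 at 5 mg/kg. At 5 mg/kg 3 of 5 arrays were below the floor of 16, and only replicate 5 came near the vehicle arrays. The log2 difference was -1.06 ± 0.23 (SE, n = 5 per group; limma adjusted p = 0.0915) at 5 mg/kg and -0.48 ± 0.23 (adjusted p = 0.84) at 1 mg/kg, neither past the threshold. With array weights, alone among its 29 alternatives, the 5 mg/kg difference passed (-1.03 ± 0.21, SE; limma adjusted p = 0.0445). In the dimmer probe set the vehicle intensities were 17.9, 29.9, 34.9, 26.8 and 26.4, those at 1 mg/kg were 6.40, 29.03, 25.2, 36.9 and 25.9, and those at 5 mg/kg were 20.4, 16.6, 9.94, 12.6 and 32.9, which overlapped. Its differences were -0.44 ± 0.26 (limma adjusted p = 0.736) at 5 mg/kg and -0.049 ± 0.26 (adjusted p = 0.983) at 1 mg/kg, the latter turning to 0.24 without scaling between arrays. Both probe sets were near the floor at 5 mg/kg, where their size understates any change.

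Clec4d, which forms a receptor complex with Clec4e, was above the floor on all 15 arrays. Its intensities were 184.9, 323.1, 179.2, 320.2 and 217.2 with vehicle, 171.9, 140.5, 161.2, 84.8 and 164.6 at 1 mg/kg, and 142.1, 89.8, 146.2, 145.5 and 174.4 at 5 mg/kg. All 10 treated arrays lay below the lowest vehicle array, with the highest treated value of 174.4 next to 179.2. The difference was -0.80 ± 0.26 (SE; limma adjusted p = 0.322) at 5 mg/kg and -0.76 ± 0.26 (adjusted p = 0.753) at 1 mg/kg, and neither passed. Its probe set carries the suffix _s_at, used for sets that can match related transcripts, as does that of Clec4n.

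Clec4n, the Dectin-2 gene, varied widely within the treated groups. In the brighter probe set the intensities were 131.5, 112.7, 96.1, 146.7 and 66.8 with vehicle, 20.6, 125.1, 17.4, 24.7 and 55.2 at 1 mg/kg, and 132.4, 65.0, 41.9, 65.6 and 28.9 at 5 mg/kg. At each dose 4 of 5 arrays were below all vehicle arrays and the fifth was at a vehicle level. The mean was lower at 1 mg/kg (log2 5.17 ± 1.19, SD, n = 5) than at 5 mg/kg (5.87 ± 0.82), an order opposite to that of Clec4a3 and Clec7a, with a dose difference of 0.70 whose 95% interval ran from -0.36 to 1.75. Against vehicle the differences were -1.57 ± 0.50 (SE; limma adjusted p = 0.709) at 1 mg/kg and -0.87 ± 0.50 (adjusted p = 0.717) at 5 mg/kg. The dimmer Clec4n probe set exceeded the floor on 1 vehicle array (16.8) and no other, and was not tested.

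Clec4a2, the inhibitory DCIR gene, gave opposite signs in its 2 probe sets. In the dimmer set the intensities were 28.9, 18.8, 46.9, 29.5 and 11.2 with vehicle and 11.1, 14.96, 15.7, 23.1 and 14.2 at 1 mg/kg, and all 5 arrays at 5 mg/kg were below the floor (-9.28 to 10.5). It passed the filter through 4 vehicle arrays and 1 array at 1 mg/kg, so it had to be higher with vehicle. At 5 mg/kg it was at least 1.63-fold lower than with vehicle (limma adjusted p = 0.389), with the floor of 16 standing for the dim group. In the brighter set the intensities were 24.1, 111.9, 135.7, 63.2 and 168.0 with vehicle, 429.5, 103.4, 159.2, 78.9 and 131.3 at 1 mg/kg, and 140.9, 119.8, 139.2, 63.2 and 162.8 at 5 mg/kg. These groups overlapped, the extremes being vehicle replicate 1 and the dim array of 1 mg/kg replicate 1, and the differences were 0.53 ± 0.51 (SE; limma adjusted p = 0.865) at 5 mg/kg and 0.85 ± 0.51 (adjusted p = 0.871) at 1 mg/kg. The first turned to -0.45 with the 18S signal as a covariate.

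Clec5a, whose product pairs with Tyrobp, was below the floor on all 15 arrays, with intensities of -4.70 to 15.7, and gave no comparison.

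**Figure D2:**
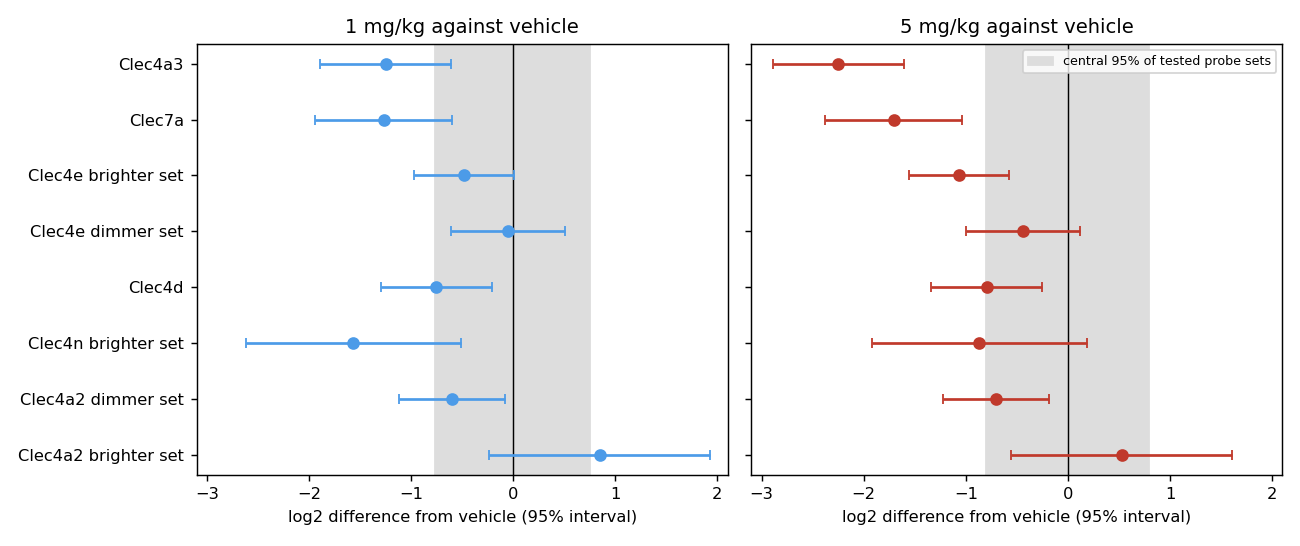
Log2 difference from vehicle (horizontal axis) with its 95% interval from limma, for each tested member probe set at 1 mg/kg and at 5 mg/kg (5 arrays per group), over a grey band holding the central 95% of the 19736 tested probe sets. At 5 mg/kg the points of Clec4a3 (-2.25), Clec7a (-1.71), the brighter Clec4e set (-1.06) and Clec4n (-0.87) lie below the band, whose lower edge is -0.80.

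Between the doses, which asks whether the higher dose moves the receptors further, 0 of 8 member probe sets passed, as did 0% of all 19736 (limma). At an unadjusted limma p under 0.05 there were 1693 probe sets, 2 of them members. These were the brighter Clec4e set and Clec4a3, the latter picked for its fall at 5 mg/kg and so no support. The median of the 8 was -0.36, and that of the 7 without Clec4a3 was -0.32, against 0.0046 over all. The brighter Clec4e probe set was -0.58 ± 0.23 (SE; limma adjusted p = 0.499) lower at 5 mg/kg than at 1 mg/kg. The design with 5 arrays per group therefore did not separate the doses for Clec7a, Clec4e or Clec4n, and the intervals leave room for a difference in either direction for Clec7a and Clec4n.

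The array-to-array deviations left after taking out the group means correlated with either sign between member probe sets. Over 28 pairs of member probe sets the correlation of these deviations across 15 arrays, a description of arrays that share a normalisation, ran from -0.46 (brighter Clec4e set with Clec4n) to 0.59 (brighter Clec4e set with Clec4d). It was 0.41 for Clec4a3 with Clec7a, 0.096 between the Clec4e probe sets and -0.28 between those of Clec4a2. Since sets of the same gene did not vary together and several held values at the floor, a variation shared by the members cannot be judged from these correlations. The genes of most similar pattern to Clec4a3, taken as the highest such correlations among 15112 probe sets, were Zfpl1 (0.913), Tmed3 (0.805), Cox19 (0.793), Psma6 (0.783) and Zbp1 (0.782), with Spearman's rho of 0.861, 0.689, 0.793, 0.796 and 0.861. Without the 2 arrays farthest out for Clec4a3, 1 mg/kg replicate 5 and 5 mg/kg replicate 2, these became 0.875, 0.70, 0.716, 0.60 and 0.586. Of the 5, 0 passed the threshold (limma) at 5 mg/kg (0.162% of all) or at 1 mg/kg (0.00507% of all). Their differences at 5 mg/kg ran from -0.51 (Zbp1) to 0.51 (Zfpl1).

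Monocyte markers were lower in treated blood, as most member probe sets were. Of 22 tested monocyte markers of 24 listed, 21 were lower at 5 mg/kg (51% of all tested probe sets), with a median of -0.87. Among the 22, 8 lay wholly below vehicle (1.24% of all) and 1 fell past the threshold (0.111% of all). This was Mpeg1, the perforin-2 of phagocytes (-2.22 ± 0.31, SE, limma adjusted p = 0.00534). The list was drawn up with earlier results of these data known, so its counts and this call are a description. Mpeg1 also enters the mean marker level used below. The lower dose had 20 of 22 lower (53.2% of all), with a median of -0.60. Their summed intensity ran from 8429 to 12210 over the vehicle arrays, 5570 to 9547 at 1 mg/kg and 4888 to 6882 at 5 mg/kg, so that vehicle and 5 mg/kg did not overlap, and none of these markers was at the floor on every array. After group means were taken out, the deviations of the mean marker level correlated over 15 arrays at 0.743 with Clec7a, 0.640 with Clec4a3 and 0.454 with Clec4d, but at -0.073 with Clec4n and 0.037 with the brighter Clec4a2 set. With the mean marker level as a covariate, an alternative added after the values were seen, the Clec7a difference at 5 mg/kg was -0.060 ± 0.52 (SE; limma adjusted p = 0.987) and that of Clec4a3 -0.91 ± 0.55 (SE). The groups at 5 mg/kg and vehicle do not share a marker level, so that this fit compares them through the 1 mg/kg arrays and the spread within groups.

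The level of each member was also set against that marker mean on the same array. Clec4a3 differed from it in vehicle blood by -0.64 ± 0.27 (SD, n = 5), at the lower dose by -1.27 ± 0.36 and at the higher by -1.995 ± 0.52. Its ranges for vehicle (-0.92 to -0.24) and 5 mg/kg (-2.65 to -1.46) did not overlap. Clec4a3 was picked for its fall in this comparison, so this separation is a description and carries no weight of its own. Clec7a lay above the marker mean by 1.19 ± 0.19 in vehicle blood, by 0.54 ± 0.53 at the lower dose and by 0.38 ± 0.39 at the higher, with overlap. Clec4d was 0.40 ± 0.30, 0.25 ± 0.46 and 0.49 ± 0.28 above it in vehicle, 1 mg/kg and 5 mg/kg blood. Clec4n was at -0.75 ± 0.32, -1.70 ± 1.31 and -0.73 ± 0.83, so that its mean distance at 5 mg/kg was near that of vehicle with a wider spread. The brighter Clec4a2 set was at -1.12 ± 1.17, 0.34 ± 0.93 and 0.30 ± 0.53, closer to or above the markers in treated blood but with overlapping ranges. The brighter Clec4e set was at -2.21 ± 0.22, -2.08 ± 0.39 and -2.38 ± 0.38, the dimmer one at -2.76 ± 0.36, -2.20 ± 0.56 and -2.31 ± 0.44, and the dimmer Clec4a2 set at -2.79 ± 0.61, -2.77 ± 0.42 and -2.60 ± 0.098. For these 3 sets many treated arrays were at the floor (at 5 mg/kg 3, 2 and 5 of 5), so their distance there is set by the floor and cannot be read. These differences between probe sets carry each set's own brightness, so only their change between groups can be read.

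**Figure D3:**
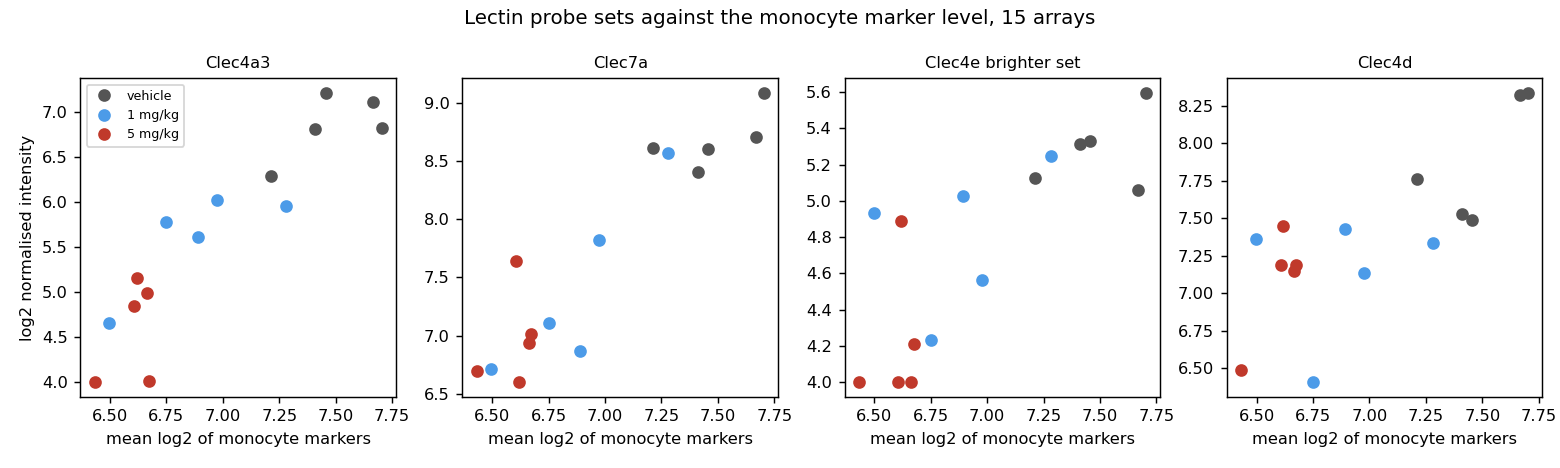
Log2 normalised intensity of Clec4a3, Clec7a, Clec4e and Clec4d (vertical axis) against the mean log2 level of 22 monocyte markers (horizontal axis), 1 point per array. Vehicle arrays lie at the upper right, with marker means of 7.21 to 7.70, and 5 mg/kg arrays at the lower left, with 6.43 to 6.67.

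The markers of the other blood cells that express these receptors moved less evenly. Mature neutrophil markers, 12 tested of 17, had a median of -0.23 at 5 mg/kg and -0.52 at 1 mg/kg. At 5 mg/kg 10 were lower (51% of all tested probe sets), 2 higher and 0 past the threshold (0.162% of all). Their summed intensities were 2519 to 3778 with vehicle and 1088 to 3933 at 5 mg/kg, and Cd177 and Hdc were at the floor on all arrays. Fpr2, a formyl peptide receptor, was at -1.34 ± 0.27 (SE, limma adjusted p = 0.0649) at 5 mg/kg. Next in order of p were Mmp8 at -0.57 ± 0.33 (limma adjusted p = 0.721), Trem1 at 0.47 ± 0.29 (adjusted p = 0.738) and S100a8 at -0.57 ± 0.37 (adjusted p = 0.767). Dendritic cell markers, 6 tested of 12, had a median of -0.58 at 5 mg/kg, with Bst2, Flt3 and Xcr1 at the floor on all arrays. Of the 6, 5 were lower (51% of all) and 0 past the threshold (0.162% of all). The homing receptor Ccr9 was at -1.36 ± 0.32 (limma adjusted p = 0.131), the transcription factor Tcf4 at -0.80 ± 0.25 (adjusted p = 0.30) and the integrin Itgax at -0.88 ± 0.33 (adjusted p = 0.45). The B and T cell lists had positive medians at 5 mg/kg, 0.49 over 11 B cell markers and 0.27 over 9 T cell markers, and -0.21 and -0.23 at 1 mg/kg. The remaining medians at 5 mg/kg were -0.44 for 7 NK cell markers and -0.68 for 3 eosinophil and basophil markers. They were -0.22 for 11 platelet markers and -0.12 for 7 erythroid markers. Of these lists, B and T cells included, 0 members passed the threshold at 5 mg/kg (0.162% of all). The part of these cell types in the receptors' values was not tested.

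The signalling partners of the receptors had a median close to that of all probe sets. Of 20 tested adaptors and kinases, 12 were lower (51% of all tested probe sets) and 8 higher at 5 mg/kg. Their median was -0.047 and 0 passed the threshold (0.162% of all). At 1 mg/kg 14 were lower (53.2% of all), with a median of -0.18. Tyrobp, the adaptor DAP12 of Clec5a, lay wholly below vehicle at 5 mg/kg (-0.58 ± 0.22, SE, limma adjusted p = 0.476), as did 1.24% of all. It was at -0.77 ± 0.22 (limma adjusted p = 0.594) at 1 mg/kg. Syk, the kinase that these receptors share, was at 0.38 ± 0.23 (limma adjusted p = 0.736), Malt1, a protease downstream of Card9, at 0.63 ± 0.35 (adjusted p = 0.708) and Map3k7, a kinase of the NF-kB pathway, at 0.40 ± 0.28 (adjusted p = 0.787) at 5 mg/kg. Fcer1g, the chain that carries Clec4d, Clec4e and Clec4n, named after its value was seen, was at -0.13 ± 0.21 (limma adjusted p = 0.933).

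Among inhibitory regulators no gene passed the threshold. Of 9 tested, 8 were lower at 5 mg/kg (51% of all tested probe sets), with a median of -0.23 (-0.21 at 1 mg/kg) and 0 past the threshold (0.162% of all). The inhibitory receptor Sirpa lay wholly below vehicle (-0.56 ± 0.24, SE, limma adjusted p = 0.539), as did 1.24% of all. Pirb, a paired immunoglobulin-like receptor, was at -0.47 ± 0.28 (limma adjusted p = 0.736), the phosphatase Ubash3b at -0.34 ± 0.24 (adjusted p = 0.796) and the ubiquitin ligase Cblb at 0.58 ± 0.32 (adjusted p = 0.701).

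Output genes of the pathway were measured for 11 of 17, since Ccl3, Csf2, Il6, Ptgs2 and Tnf were at the floor on all 15 arrays and another was too dim. At 5 mg/kg 7 were lower (51% of all tested probe sets) and 4 higher (median -0.19), with 0 past the threshold (0.162% of all). The inflammasome sensor Nlrp3 was at -0.63 ± 0.25 (SE; limma adjusted p = 0.511), its adaptor Pycard at -0.78 ± 0.33 (adjusted p = 0.539), Casp8 at -0.48 ± 0.19 (adjusted p = 0.519) and the cytokine Il1b at -0.45 ± 0.22 (adjusted p = 0.637). Il1b at 1 mg/kg was at -0.56 ± 0.22 (limma adjusted p = 0.804) and lay wholly below vehicle, as did 0.709% of all tested probe sets.

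The other C-type lectin genes had medians near 0, and their difference from the members was not tested. Of 26 tested of 46 listed, 15 were lower (51% of all tested probe sets) and 11 higher at 5 mg/kg, with a median of -0.037. At 1 mg/kg 13 were lower (53.2% of all) and 13 higher (median -0.0059). The threshold was passed by 0 at 5 mg/kg (0.162% of all) and 0 at 1 mg/kg (0.00507% of all). The 7 member probe sets without Clec4a3 had a median of -0.80 at 5 mg/kg, taken over probe sets and not over genes. Clec2i, a ligand of NK cell receptors, was at 1.26 ± 0.39 (SE, limma adjusted p = 0.303) at 5 mg/kg. Cd93, a receptor of myeloid and endothelial cells, lay wholly below vehicle (-0.84 ± 0.30, SE, limma adjusted p = 0.413), as did 1.24% of all. The platelet selectin Selp was at -1.06 ± 0.48 (limma adjusted p = 0.597) and the galactose-type lectin Clec10a at -0.67 ± 0.40 (adjusted p = 0.736).

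**Figure D4:**
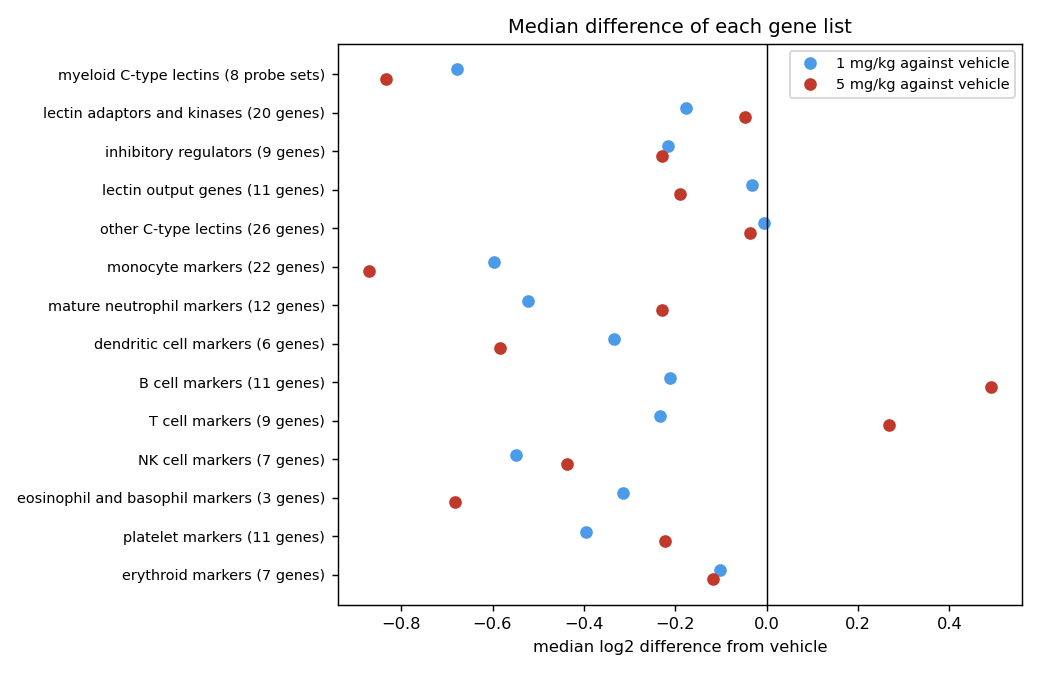
Median log2 difference from vehicle (horizontal axis) of the 8 member probe sets and of the tested genes of each list, at 1 mg/kg and at 5 mg/kg. The member and monocyte marker medians are the lowest at 5 mg/kg (-0.83 and -0.87), and those of the other C-type lectins and of the lectin adaptors lie near 0. The member median includes Clec4a3, picked for its fall at 5 mg/kg, and is -0.80 without it. It is taken over all tested member probe sets, whereas each list gene has 1 probe set.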

How the data were processed

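RNA of whole blood from 15 mice (200 ng each) was amplified, biotin-labelled and read on Affymetrix arrays, per the labels' protocols. The intensity values deposited by the authors are linear, reach below 0 and differ in median between arrays; how they were summarised is not stated in the labels. Of 45101 probe sets, 64 controls were left out; 34945 others named a single gene, 932 named more than 1 and 9160 lacked a name. Values were quantile-normalised, floored at 16 and put on the log2 scale. Probe sets above the floor on at least 5 arrays (19736) were tested with limma 3.58.1 in R 4.3.3, with group means over all 15 arrays, two-sided, Benjamini-Hochberg adjustment over all tested probe sets and a threshold of 0.05 (12 residual and 3.985 prior degrees of freedom). The test was checked on simulated data, in which only probe sets well above the floor were lowered. That check does not cover sets near the floor, as several members were. The 9 members, the 13 lists and the tests were chosen with earlier results of these data known. Each list gene was read by its tested probe set of highest mean log2 intensity, while members kept every tested probe set. Named list genes are those past the threshold or, with none, up to 4 in order of p at 5 mg/kg. Similar genes are the 5 with the highest correlation of deviations from group means, above the floor on at least 10 arrays. The number of arrays limits the precision. Alternatives covered scaling, floor, filter, model, replicate block, 18S signal and single arrays left out.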

Additional observations from a re-analysis of the deposited data

Results flagged for a closer look

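In 30 groups of 5 values (the 8 tested member probe sets and the monocyte and mature neutrophil marker means, in 3 groups each), 4 had an array whose gap to its nearest neighbour took up most of the group's range (Dixon's critical value 0.71, which chance exceeds in about 1 of 20 groups). The brighter Clec4e probe set was highest on 5 mg/kg replicate 5, at a log2 value of 4.89 against 4.21 for the next. Clec4d was lowest on 1 mg/kg replicate 4, at 6.41 against 7.13. The dimmer Clec4a2 probe set was at 4.53 on 1 mg/kg replicate 4, with the other 4 arrays of that group at the floor of 4. The mean of the monocyte markers was lowest on 5 mg/kg replicate 2, at 6.43 against 6.61.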

How the results depend on the processing

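Counts, medians and the differences of Clec4a3, Clec7a and Clec4d from vehicle were recomputed under 30 alternatives, 15 of them leaving out 1 array. Other probe sets missed the filter or were merged in some, which left 29 for Clec4n and the brighter Clec4e and Clec4a2 sets, 27 for the dimmer Clec4e set and 20 for the dimmer Clec4a2 set. Between the doses, only Clec4a3, Clec7a, Clec4n and the brighter Clec4e set were recomputed singly. The count of member probe sets past the threshold at 5 mg/kg, Clec4a3 included, was 2, rose to 3 with array weights (the brighter Clec4e set) and became 1 with a floor of 8, with probe sets above the floor on at least 1 array, with 1 probe set per gene and with the replicate block. It was 0 without scaling between arrays, with the 18S signal as a covariate, without the 2 vehicle arrays of highest 18S and with the monocyte marker mean as a covariate, and 1 to 2 on leaving out arrays. At 1 mg/kg and between the doses it was 0 under every alternative. Calls over all probe sets at 5 mg/kg fell too, from 10 higher and 22 lower to 0 with either covariate. Without the 2 vehicle arrays they were 2 and 2, and with array weights 44 and 49. The counts of 0 are therefore no result about the members. At 1 mg/kg the main fit called 0 higher and 1 lower over all, and between the doses 0. The median over members at 5 mg/kg ran from -0.97 to -0.49 and between the doses from -0.51 to -0.19. At 1 mg/kg it ran from -1.0007 to -0.19, the latter with the monocyte marker mean as a covariate. Signs turned for the brighter Clec4a2 set at 5 mg/kg with the 18S covariate (-0.45), for the dimmer Clec4e set at 1 mg/kg without scaling (0.24) and on leaving out arrays (-0.19 to 0.12), and for Clec7a between the doses with the marker covariate (0.079). The cause was not tested. Without scaling, the median of all probe sets shifted to 0.12 at 5 mg/kg, and 0 higher and 2 lower calls stood over all probe sets in place of 10 and 22. Same-numbered mice did not deviate together (correlations of -0.28 to 0.32, 3 of 15 over 0.1), so the block shares only a number. Probe sets near the floor understate any change.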

Other observations

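A further probe set is annotated with both Clec4b1 and Clec4a2 and was left out of the comparisons. Its normalised intensity was 3.95, 2.71, 41.3, 9.46 and 43.3 with vehicle, 29.6, 35.1, 18.5, 15.9 and 36.6 at 1 mg/kg, and 27.5, 23.8, 16.1, 22.7 and 17.3 at 5 mg/kg. The vehicle arrays spanned all treated values.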
